A study of Homo sapiens with 9 samples.

Results

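The subject is 5 human genes, KLF9, KLF10, KLF11, KLF13 and KLF16, which encode Kruppel-like transcription factors with a SIN3-interacting domain. They were found by their GENCODE 29 symbols among the 58735 genes of the deposited tables, and all 5 were among the 18088 genes with enough counts to be tested. RNA was sequenced from HEK293T cells, an established line derived from human embryonic kidney that carries the SV40 large T antigen. The 3 groups, of 3 libraries each, received a Silencer Select siRNA against SUDS3, one against PHF12, or the Silencer Select Negative Control No. 2, in each case at 10 nM with Lipofectamine RNAiMAX for 36 h. All groups thus share the transfection, and each knockdown rests on 1 siRNA. The labels do not say whether the libraries of a group came from separate cultures, so p-values measure the spread between these libraries, which may be technical.

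Kruppel-like factors are proteins with zinc fingers at the carboxyl end that bind GC-rich and CACCC-containing DNA, the same kind of site that SP factors bind. The 5 members carry, near the amino end, a short helix that docks on a paired amphipathic helix domain of the scaffolds SIN3A and SIN3B, which bring histone deacetylases to the bound gene. SUDS3 and PHF12 are themselves subunits of SIN3 complexes, so the comparison asks whether the RNA of factors that recruit SIN3 changed when a subunit of SIN3 was depleted. RNA levels say nothing of whether the proteins bound SIN3 in these cells.

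Library totals ran from 37962926 to 50946148 counts. The knockdowns were checked on their targets: SUDS3 averaged 22.1 CPM in SUDS3 knockdown, 81.0 CPM in PHF12 knockdown and 111.1 CPM in control, and PHF12 averaged 61.5, 26.9 and 49.9 CPM in the same order of groups. CPM is the count scaled to library size with TMM factors. PHF12 RNA was therefore reduced less than SUDS3 RNA, and the PHF12 siRNA also came with lower SUDS3 (log2 fold change -0.46, edgeR adjusted p = 6.83e-10). Of the markers looked up for the line, NEFL, NEFM, VIM, KRT8 and KRT18 were above 10 CPM in each group's mean and PAX2 was at 1.29 to 1.70 CPM. PTPRC of leukocytes was at 0, PECAM1, ALB and COL1A2 averaged below 0.2 CPM in each group, ACTA2 was at 6.81 to 9.37 CPM, and COL1A1 averaged 20.7 CPM in SUDS3 knockdown, 17.2 CPM in PHF12 knockdown and 11.7 CPM in control. KRT8 was at 11.5 to 14.2 CPM in SUDS3 knockdown, 34.2 to 36.0 CPM in PHF12 knockdown and 19.3 to 20.2 CPM in control, and NEFM averaged 363, 238 and 276 CPM in the same order, in both cases without overlap between groups. The part of these marker differences in the results was not tested. Both comparisons against control use the same 3 control libraries. In bulk RNA, fewer cells expressing a gene and less RNA per cell cannot be told apart.

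The stretches of DNA before the annotated starts of 3 members differ widely in base composition. They are shown because KLF9, KLF13 and KLF16 all had more RNA in SUDS3 knockdown than in control, while they differed in PHF12 knockdown. Each is the 250 bases before the RefSeq start (build GRCh38.p14), 5′ to 3′ on the gene's strand. Capitals mark the GC box GGGCGG or its reverse complement CCGCCC, and the CACCC box or its reverse complement GGGTG, where overlapping matches run together.
KLF9, chr9:70414658-70414907, minus strand: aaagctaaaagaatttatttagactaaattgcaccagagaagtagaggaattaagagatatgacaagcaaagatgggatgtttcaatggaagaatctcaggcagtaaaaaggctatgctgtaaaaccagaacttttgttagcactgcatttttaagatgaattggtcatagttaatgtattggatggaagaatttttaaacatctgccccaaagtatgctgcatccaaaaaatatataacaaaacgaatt
KLF13, chr15:31326585-31326834, plus strand: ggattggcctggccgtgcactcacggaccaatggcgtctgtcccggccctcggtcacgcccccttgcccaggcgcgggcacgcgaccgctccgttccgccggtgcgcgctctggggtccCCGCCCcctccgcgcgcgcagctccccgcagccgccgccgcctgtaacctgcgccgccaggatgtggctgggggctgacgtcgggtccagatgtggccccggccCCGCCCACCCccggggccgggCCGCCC
KLF16, chr19:1863580-1863829, minus strand: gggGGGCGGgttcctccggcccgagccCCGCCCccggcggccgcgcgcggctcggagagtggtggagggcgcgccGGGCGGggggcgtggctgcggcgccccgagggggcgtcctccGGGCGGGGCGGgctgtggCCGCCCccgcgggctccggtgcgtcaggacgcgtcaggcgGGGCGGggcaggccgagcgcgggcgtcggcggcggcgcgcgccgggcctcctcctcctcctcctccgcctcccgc

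The KLF9 window was 32.4% G and C, lower than all but 2.92% of 35116 such windows, whose median was 58%. It held no GC box and no CACCC box. The KLF13 window was 78.8% G and C and held 3 GC boxes and 1 CACCC box, and the KLF16 window was 86.4% G and C and held 7 GC boxes. Among all windows, 42.6% held a GC box and 54.7% a CACCC box on either strand. No KLF10 window was used here. Both KLF11 windows lie downstream of the start of the GENCODE 29 transcript with the longest 3′ untranslated region and are not printed. They were 78.8% and 74.4% G and C, with 2 and 6 GC boxes. The part of base composition in the calls was not tested. These matches are descriptions of the sequence, and binding was not measured.

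KLF9 moved in opposite directions in the knockdowns. This factor, known as a target of glucocorticoid and thyroid hormone receptors, lies on chromosome 9 from 70384597 to 70414624 (GRCh38, minus strand; ENSG00000119138). It had 87.1, 85.2 and 80.7 CPM in SUDS3 knockdown, 50.4, 58.7 and 54.7 CPM in PHF12 knockdown and 67.1, 67.8 and 69.2 CPM in control. Every SUDS3 knockdown library was above every control library and every PHF12 knockdown library was below them, so none of the 3 groups overlapped. MXI1 and HBP1, read below, moved as KLF9 did. So did SKI (log2 fold change 0.46 with the SUDS3 siRNA and -0.21 with the PHF12 siRNA) and IER2 (0.35 and -0.30), which come from other lists of genes. How many of all tested genes moved in opposite directions was not counted. Against control, KLF9 rose with the SUDS3 siRNA (log2 fold change 0.31, SE 0.05, edgeR adjusted p = 8.69e-06) and fell with the PHF12 siRNA (-0.32, SE 0.05, adjusted p = 9.85e-06). Between the knockdowns the difference was 0.63 on the log2 scale (SE 0.05, adjusted p = 1.94e-12), 54.5% more in SUDS3 knockdown than in PHF12 knockdown, and 21.3% of all tested genes differed by at least as much in either direction. For the KLF9 changes against control, the corresponding share was 39.97% with the SUDS3 siRNA and 34.96% with the PHF12 siRNA. The fold change between the knockdowns uses the same knockdown libraries as the comparisons against control. The control libraries still entered the shared fit that gave its SE and adjusted p.

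KLF10 fell in both knockdowns. It is a repressor that was found as an early response gene of transforming growth factor beta (TGF-beta), and lies on chromosome 8 from 102648779 to 102655902 (minus strand; ENSG00000155090). Its levels were 33.4, 31.6 and 35.2 CPM in SUDS3 knockdown, 31.6, 36.8 and 41.1 CPM in PHF12 knockdown and 44.0, 43.2 and 44.3 CPM in control. All 6 knockdown libraries were below all 3 controls, and the PHF12 knockdown libraries were spread the widest. KLF10 fell by 0.39 on the log2 scale with the SUDS3 siRNA (SE 0.07, edgeR adjusted p = 2.94e-05) and by 0.27 with the PHF12 siRNA (SE 0.07, adjusted p = 0.00349). The second call rested on 1 library: without PHF12 knockdown replicate 1, the lowest of its group, the log2 fold change was -0.17 (adjusted p = 0.0676). Between the knockdowns the groups overlapped and the difference of -0.13 did not pass (95% interval -0.27 to 0.02, adjusted p = 0.158). That difference did pass without PHF12 knockdown replicate 1 (-0.22, adjusted p = 0.0112) and with upper-quartile scaling (-0.19, adjusted p = 0.0253).

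KLF11, the closest relative of KLF10 and likewise induced by TGF-beta, did not pass in any comparison. The gene lies on chromosome 2 from 10042849 to 10054836 (plus strand; ENSG00000172059), and variants of it are known in a form of monogenic diabetes. It had 31.3, 35.1 and 32.6 CPM in SUDS3 knockdown, 29.4, 31.9 and 31.4 CPM in PHF12 knockdown and 32.8, 33.0 and 30.5 CPM in control. The 3 groups overlapped. The log2 fold change was 0.04 with the SUDS3 siRNA (95% interval -0.10 to 0.18, edgeR adjusted p = 0.712) and -0.06 with the PHF12 siRNA (-0.19 to 0.08, adjusted p = 0.61). Between the knockdowns it was 0.09 (-0.04 to 0.23, adjusted p = 0.283).

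KLF13 was higher in both knockdowns than in control. It is known in T cells as an activator of the chemokine gene CCL5, and lies on chromosome 15 from 31326855 to 31435665 (plus strand; ENSG00000169926). It had 36.4, 37.2 and 39.5 CPM in SUDS3 knockdown, 34.4, 32.0 and 32.8 CPM in PHF12 knockdown and 28.6, 29.7 and 21.9 CPM in control. The groups did not overlap, and control replicate 3 was far below the other 2 controls. KLF13 rose with the SUDS3 siRNA (log2 fold change 0.49, SE 0.08, edgeR adjusted p = 4.56e-06), in the main fit the largest change of a member against control. It rose with the PHF12 siRNA by 0.30 (SE 0.08, adjusted p = 0.00286), and without control replicate 3 this was 0.19 (adjusted p = 0.0544). The rise with the SUDS3 siRNA passed with each of the 9 libraries left out in turn, at 0.37 to 0.58. Its lower end was without control replicate 3, where KLF10 changed by -0.38 and KLF13 was no longer the largest. SUDS3 knockdown was above PHF12 knockdown by 0.19 (SE 0.08), at the edge of the threshold with an adjusted p of 0.0497, and this call ended under 5 of 9 other settings and without any 1 of 5 of the 6 knockdown libraries.

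KLF16, a close relative of KLF13 first described as a regulator of dopamine receptor genes, rose with the SUDS3 siRNA. It lies on chromosome 19 from 1852399 to 1863568 (minus strand; ENSG00000129911). Its levels were 40.7, 40.1 and 39.1 CPM in SUDS3 knockdown, 32.7, 32.3 and 32.4 CPM in PHF12 knockdown and 31.1, 32.1 and 29.9 CPM in control. The SUDS3 knockdown libraries stood above the other 6, and the PHF12 knockdown libraries were just above the controls without overlap. The log2 fold change was 0.37 with the SUDS3 siRNA (SE 0.06, edgeR adjusted p = 1.23e-05) and 0.30 between SUDS3 and PHF12 knockdown (SE 0.06, adjusted p = 0.000129). With the PHF12 siRNA it was 0.07, which did not pass (95% interval -0.06 to 0.19, adjusted p = 0.493).

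**Figure D1:**
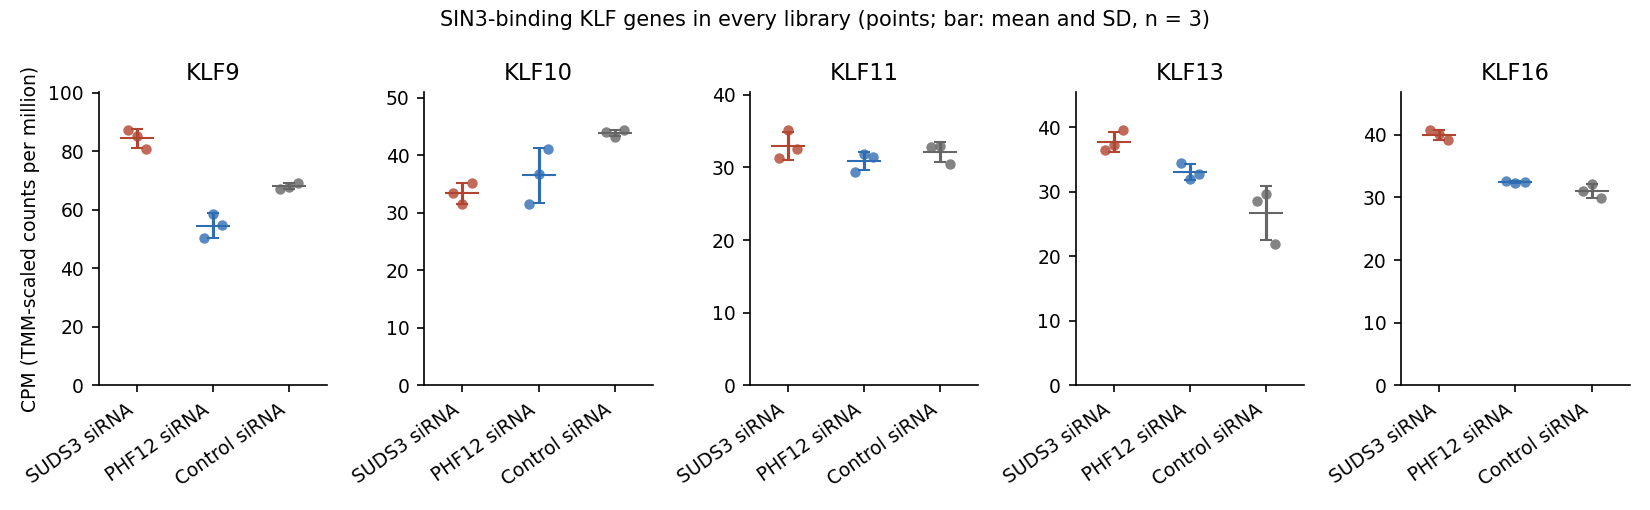
CPM of each member in every library (vertical axes, each from 0), by siRNA; points are libraries and bars the mean ± SD of 3. KLF9 is high with the SUDS3 siRNA and low with the PHF12 siRNA, KLF10 is below control in both, KLF13 is above control in both, and KLF16 is raised with the SUDS3 siRNA.

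Counted together, the SUDS3 siRNA came with rises of 3 of 5 members, a fall of 1 and no call for 1, against 19.6% of all tested genes higher, 19.2% lower and 38.7% in either direction. The PHF12 siRNA came with a rise of 1 member, falls of 2 and no call for 2, against 14.8% higher, 17.1% lower and 31.9% in either direction. Between SUDS3 and PHF12 knockdown, 3 of 5 were higher in SUDS3 knockdown and 2 did not pass, against 22.7% higher, 21.1% lower and 43.9% in either direction. The median log2 fold change of the 5 members was 0.31 with the SUDS3 siRNA, against -0.02 over all genes tested, and -0.06 with the PHF12 siRNA, against 0.00. With 5 genes and such backgrounds these counts describe the members and do not set them apart from other genes. No member differed by as much as 2-fold in any comparison, and the changes of KLF10 and KLF13 with the PHF12 siRNA were equalled or exceeded in size by 41.3% and 36.2% of tested genes.

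**Figure D2:**
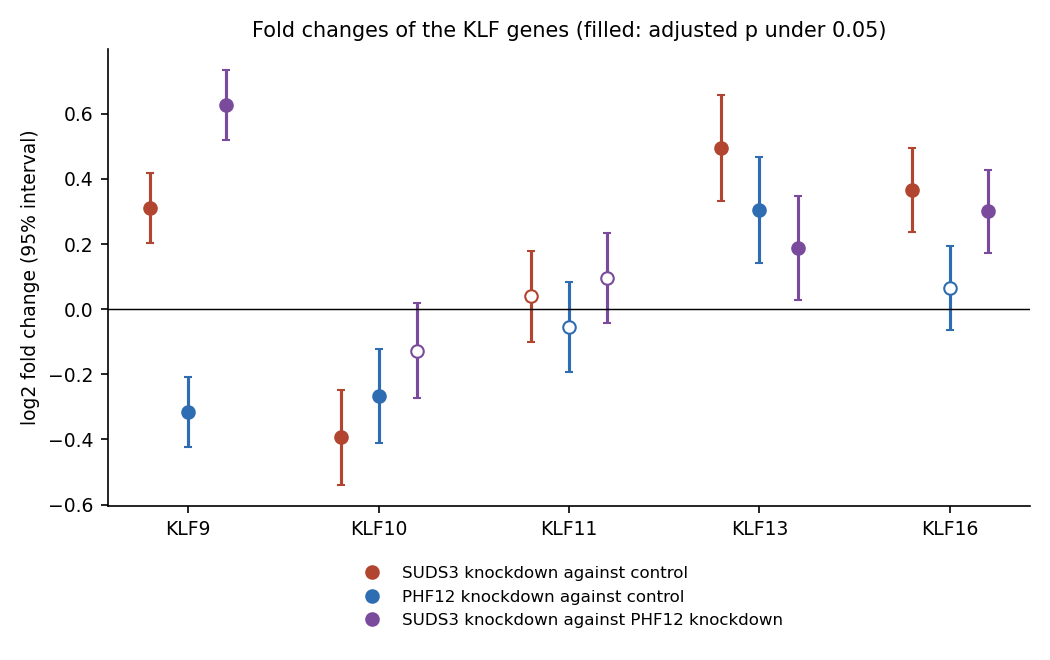
log2 fold change of each member with its 95% interval in the 3 comparisons (vertical axis); filled points passed an adjusted p of 0.05. KLF9 lies on opposite sides of 0 against control, KLF10 and KLF13 keep to 1 side each, and all KLF11 intervals cross 0.

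Because CPM does not allow for transcript length, levels of different members were compared as TPM computed from the deposited counts and the exonic length of each gene in GENCODE 29. In SUDS3 knockdown the order was KLF9 at 58.1 ± 2.15 TPM, KLF16 at 48.2 ± 0.865, KLF10 at 29.7 ± 1.58, KLF11 at 25.6 ± 1.61 and KLF13 at 14.3 ± 0.642 (SD, n = 3). In PHF12 knockdown KLF16 (37.7 ± 0.225 TPM) and KLF9 (36.2 ± 2.72) overlapped, as did KLF9 and KLF10 (31.3 ± 4.15), followed by KLF11 (23.1 ± 0.970) and KLF13 (12.1 ± 0.450). In control KLF9 led with 45.5 ± 1.35 TPM, KLF10 (37.9 ± 0.822) and KLF16 (36.3 ± 1.16) overlapped, and KLF11 (24.2 ± 0.798) and KLF13 (9.81 ± 1.47) came last. The order of the means was the same per longest transcript in each group, but the overlaps were not. By that length KLF10 and KLF16 in control were at 30.5 and 27.3 TPM and did not overlap. KLF10 and KLF11 in SUDS3 knockdown overlapped by that length and not per exonic length, as did KLF10 and KLF16 in PHF12 knockdown.

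Summed over the 5 members, the level was 175.9 ± 1.27 TPM in SUDS3 knockdown, 140.4 ± 6.54 TPM in PHF12 knockdown and 153.7 ± 2.28 TPM in control. The groups did not overlap. The make-up of that sum also differed, with KLF9 giving 33.0%, 25.8% and 29.6% of it in SUDS3 knockdown, PHF12 knockdown and control. KLF10 gave 16.9%, 22.2% and 24.7% in the same order, and KLF16 27.4%, 26.9% and 23.6%.

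**Figure D3:**
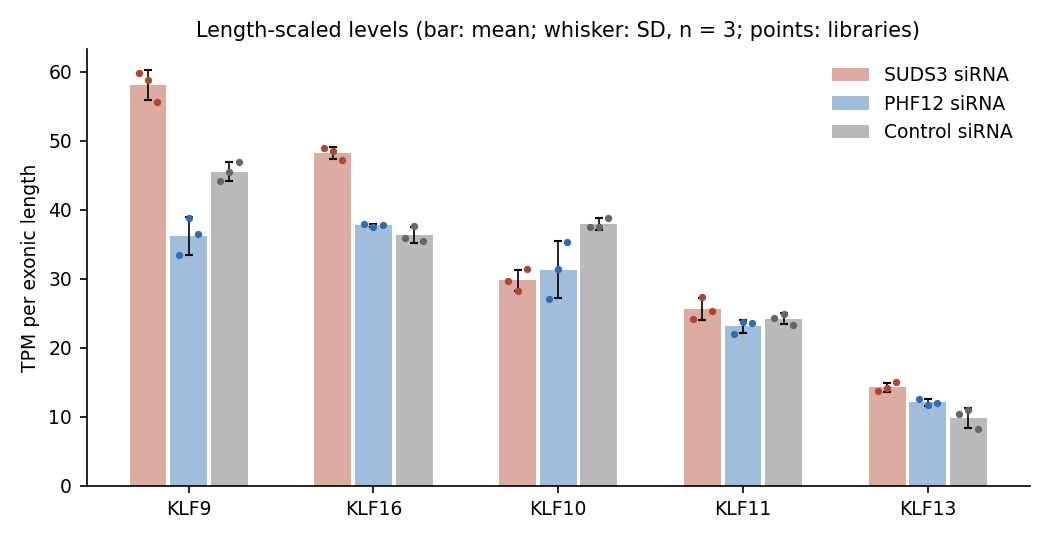
TPM per exonic length of each member (vertical axis, from 0), by siRNA; bars are means, whiskers the SD of 3 libraries and points the libraries. KLF9 and KLF16 separate from the others in SUDS3 knockdown, at 58.1 and 48.2 TPM, and KLF13 is the lowest member in every group.

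The 3′ untranslated regions of members were searched for the hexamers AATCAC and TACATT, which led an earlier scan of 3′ untranslated regions against these same fold changes in PHF12 and SUDS3 knockdown. They were thus picked from these data and are no independent evidence, and whether they match the siRNAs was not tested. KLF9 (3′ untranslated region of 3179 bases) and KLF11 (2329 bases) held AATCAC at 2 places each, and KLF10, KLF13 and KLF16 held none, where 30.7% of 13773 tested protein-coding genes held at least 1. The sites of KLF9 and KLF11 are shown because KLF9 fell with the PHF12 siRNA and KLF11 did not pass. Capitals mark the hexamer in 24 bases of each GENCODE 29 transcript, 5′ to 3′, and bases are counted from the first of the 3′ untranslated region.
KLF9, hexamer at base 544: actctcttgAATCACgttaacttt
KLF9, hexamer at base 1381: taggaatgaAATCACatcactgta
KLF11, hexamer at base 257: gataatctgAATCACcagcattca
KLF11, hexamer at base 405: tggtgctcaAATCACcaatttcta

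KLF10, which fell with the PHF12 siRNA too, held no AATCAC in its 1353 bases. TACATT was present in all members except KLF16, once in KLF9 and KLF10 and at 2 places in KLF11 and KLF13, and in 40.9% of tested protein-coding genes. The shares for both hexamers are not matched for length. The median 3′ untranslated region of those genes was 1370 bases. KLF13 (5600 bases) and KLF16 (2060 bases), like KLF9 and KLF11, have longer ones. Among the 4 members that held TACATT, KLF9 and KLF13 were higher in SUDS3 knockdown than in control, KLF10 was lower and KLF11 was not called. The part of these matches in the results was not tested.

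The genes whose profile over the 9 libraries was most like each member's were sought among 11729 protein-coding genes, by the root mean square difference of log2 CPM after each gene's own mean was subtracted. For KLF9 they were C3orf14 (difference 0.05 on the log2 scale) and AIDA (0.05). C3orf14 had log2 fold changes of 0.38 with the SUDS3 siRNA and -0.25 with the PHF12 siRNA, and AIDA of 0.29 and -0.40. Both were chosen for likeness over these same libraries, so fold changes near those of KLF9 follow from the choice. The nearest to KLF10 were CAP2 and EEF1E1 (both 0.07), to KLF13 TTC7A (0.06) and SNX33 (0.07), to KLF16 LRPAP1 and PCSK7 (both 0.03), and to KLF11 ACADVL and SPTBN1 (both 0.03). KLF11's own libraries varied by only 0.07 around their mean, against 0.26 for KLF9.

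Of all tested genes, 19.6% were higher and 19.2% lower in SUDS3 knockdown, and 14.8% and 17.1% in PHF12 knockdown. The lists of genes below were not tested against these shares. Of 13 other KLF genes looked up, 10 were tested, with 4 rises, 3 falls and 3 that did not pass in SUDS3 knockdown. Their median log2 fold change there was 0.01 against -0.02 over all genes. KLF15, a glucocorticoid-induced metabolic regulator, rose by 0.67 (SE 0.11, edgeR adjusted p = 8.5e-06), KLF4, a pluripotency factor, by 0.41 and KLF7, a factor of neurons, by 0.38. In PHF12 knockdown 1 of 10 passed, KLF3, which fell by 0.32 on the log2 scale (adjusted p = 0.000168), with a median of -0.09 against 0.00. KLF14, the further family member with a SIN3-interacting domain, averaged 0.786 CPM in SUDS3 knockdown, 0.429 CPM in PHF12 knockdown and 0.794 CPM in control and did not pass in any comparison. Of 7 SP genes tested, 3 fell and 4 did not pass in SUDS3 knockdown. Those that fell were SP6 (log2 fold change -0.67, adjusted p = 0.0473), SP4 (-0.27) and SP3 (-0.45, adjusted p = 5.62e-09). SP3 averaged 57.3 CPM in SUDS3 knockdown against 78.3 CPM in control. SP6 was low, at 1.34 CPM against 2.14 CPM, and its groups overlapped. In PHF12 knockdown SP4 fell (-0.31, adjusted p = 0.00567) and 6 SP genes did not pass. The SP gene medians were -0.22 and 0.09.

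**Figure D4:**
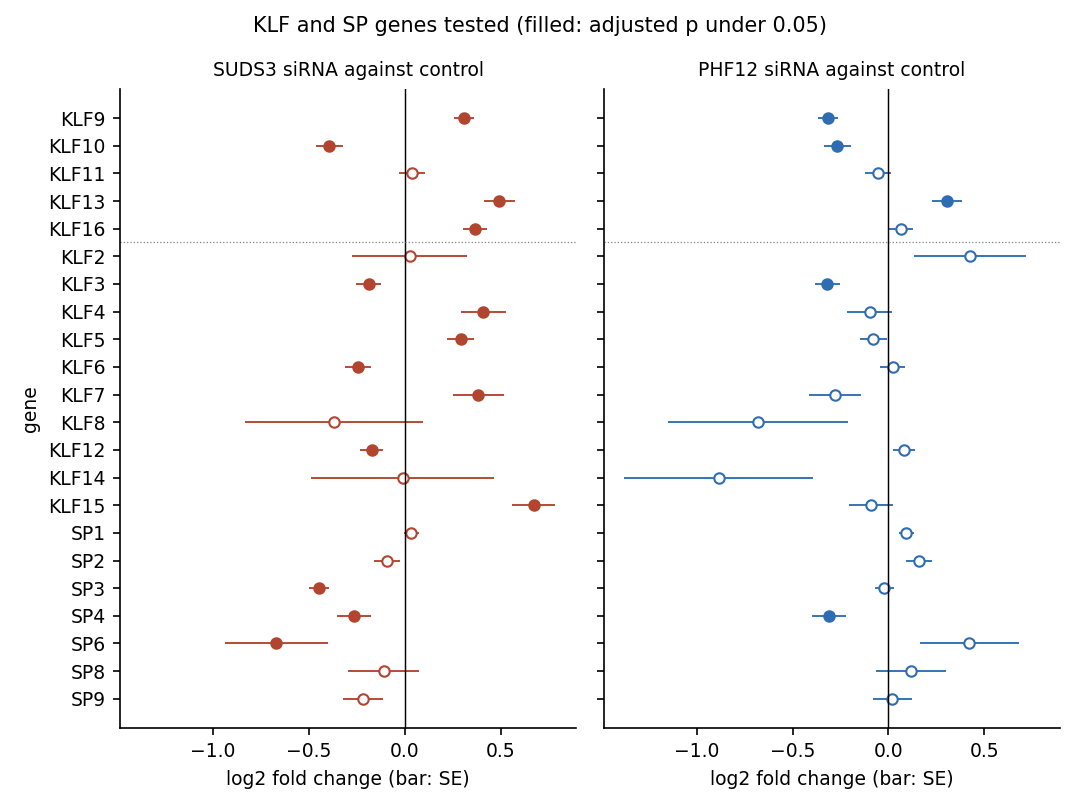
log2 fold change with SE (horizontal axes) of the tested KLF and SP genes against control, with the SUDS3 siRNA at left and the PHF12 siRNA at right; the dotted line sets the 5 members above the others, and filled points passed an adjusted p of 0.05. SUDS3 knockdown has filled points on both sides of 0, and in PHF12 knockdown KLF3 and SP4 are the filled ones below the line.

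The RNA of the scaffolds and deacetylases that such factors recruit was read beside the members. SIN3A (log2 fold change 0.31) and SIN3B (0.25) rose with the SUDS3 siRNA and did not pass with the PHF12 siRNA (0.08 and 0.03), while HDAC1 rose with both (0.10 and 0.56) and HDAC2 passed with neither. Of 8 other factors that bind SIN3 through an interaction domain, 4 rose, 1 fell and 3 did not pass in SUDS3 knockdown. Their median was 0.19 against -0.02 over all genes. In PHF12 knockdown 2 rose, 2 fell and 4 did not pass, with a median of 0.02 against 0.00. The shares of all tested genes were 19.6% higher and 19.2% lower in SUDS3 knockdown, and 14.8% and 17.1% in PHF12 knockdown. As with KLF9, MXI1 of the MAX network rose with the SUDS3 siRNA (0.38, edgeR adjusted p = 1.17e-06) and fell with the PHF12 siRNA (-0.45, adjusted p = 8.41e-08). So did HBP1, an HMG-box repressor (0.42 and -0.30). REST, the repressor of neuronal genes, moved the other way, with 0.41 in PHF12 knockdown and -0.48 in SUDS3 knockdown. TGIF1, a homeodomain corepressor, rose in PHF12 knockdown (0.42).

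KLF10 and KLF11 are known as TGF-beta response genes, so genes of that pathway were read beside them. Of 19 tested, 3 rose, 8 fell and 8 did not pass in SUDS3 knockdown, against 19.6% of all tested genes higher and 19.2% lower. Their median log2 fold change was -0.17 against -0.02 over all genes. The receptor TGFBR1 fell by 1.74 on the log2 scale (edgeR adjusted p = 7.68e-22), SKIL, a SMAD corepressor induced by the pathway, by 0.54, and the ligand TGFB1 by 0.52. In PHF12 knockdown 4 rose, 6 fell and 9 did not pass, against 14.8% of all tested genes higher and 17.1% lower. The median there was 0.02 against 0.00. The receptor TGFBR2 fell by 0.56 and the target PMEPA1 by 0.53, and the latent binding protein LTBP3 rose by 0.42. TGFBR1 did not pass there (0.05). KLF10 is also counted among immediate-early genes. Of 19 others tested, 3 rose, 4 fell and 12 did not pass in SUDS3 knockdown (median -0.04 against -0.02), where JUN fell by 0.76, FOS by 0.46 and FOSL2 by 0.42. In PHF12 knockdown 1 rose, 7 fell and 11 did not pass (median -0.20 against 0.00), where FOSL2 fell by 0.50 and FOS by 0.49 and IER5 rose by 0.36.

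KLF9 and KLF10 are known outputs of the circadian clock, and KLF9 of the glucocorticoid receptor. Of 21 clock genes tested, 3 rose, 8 fell and 10 did not pass in SUDS3 knockdown, against 19.6% of all tested genes higher and 19.2% lower. Their median log2 fold change was -0.17 against -0.02 over all genes. The repressor BHLHE41 fell by 0.94 (edgeR adjusted p = 1.05e-07), HLF by 0.60 and PER2 by 0.52. HLF was low, at 1.91 CPM against 2.91 CPM in control, and its groups overlapped (adjusted p = 0.0341). In PHF12 knockdown 6 rose, 4 fell and 11 did not pass, against 14.8% of all tested genes higher and 17.1% lower. The median there was 0.03 against 0.00. There NR1D2 fell by 0.83 (adjusted p = 5.91e-15) and ARNTL2 by 0.75, and CIART rose by 0.78. CIART was low too, at 3.08 CPM against 1.78 CPM in control (adjusted p = 0.0306). Of 10 glucocorticoid response genes, 1 rose, 4 fell and 5 did not pass in SUDS3 knockdown (median -0.11 against -0.02). PER1 rose by 0.39 there, ERRFI1 fell by 0.47 and SGK1 by 0.45. In PHF12 knockdown 3 rose, 2 fell and 5 did not pass (median -0.04 against 0.00), where PER1 rose by 0.40, DDIT4 fell by 0.37 and ERRFI1 rose by 0.32. TSC22D3, a glucocorticoid-induced leucine zipper gene, was lower in SUDS3 than in PHF12 knockdown (-0.39, edgeR adjusted p = 1.53e-13). Against control it fell in SUDS3 knockdown (-0.13, adjusted p = 0.000368) and rose in PHF12 knockdown (0.26, adjusted p = 9.45e-09).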

How the data were processed

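The authors deposited whole-number counts for 58735 Ensembl genes and a table of TPM. Trimmomatic 0.36, HISAT2 2.1.0, HTSeq and build GRCh38 are named, per the submitters' processing notes. The annotation, and whether counting used strand, were not given in the sources used here. Of the counts above 0, 96.1% are multiples of 4, and so are all 45 counts of the members (828 to 4084), which would then stand for 207 to 1021 fragments. The deposited TPM do not follow gene length: the length each value implies had a Spearman correlation of -0.01 with GENCODE 29 exonic length across 16828 genes, so TPM were recomputed from counts for levels, and the deposited TPM served only in limma repeats.

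The test was edgeR 4.0.16 under R 4.3.3, run on the counts as deposited (genes kept by filterByExpr with a minimum count of 10, TMM scaling, robust quasi-likelihood F-tests of 3 contrasts in 1 fit of 9 libraries, Benjamini-Hochberg adjustment over 18088 genes, threshold 0.05). Intervals are 95% intervals from the fit's standard errors. The fit was tested on simulated data for the PHF12 comparison, with 50 genes above 1 CPM changed at each of several sizes. It recovered 30 of 50 at 1.25-fold, 40 at 1.5-fold, 47 at 2-fold and 46 at 3-fold, with 10 false calls. Small changes can thus be missed. Far fewer genes were changed in the simulated data than the 5776 called in PHF12 knockdown, and simulated counts were not drawn as multiples of 4. The numbers recovered therefore do not give the recovery or false calls of the comparison itself. The members, the gene lists and the rules for named genes were chosen with earlier results of these data known. Named context genes are the 3 largest changes that passed per list in each comparison against control, with KLF14, the SIN3 scaffolds, HDAC1, HDAC2 and the lookups stated. Of such changes between the knockdowns, only that of TSC22D3 is given. SKI, IER2, TGFBR1 where it did not pass, and repeated genes named for the opposite knockdown were chosen after their values were seen. No gene with over 2 counts a library on average overlaps a member, and no pseudogene is named after one. Sequences are from RefSeq (promoters; matched by symbol) and GENCODE 29 transcripts. Alternatives were RLE and upper-quartile scaling, no filter, DESeq2 1.42.0, counts divided by 4, fits of 2 groups, a replicate block, limma 3.58.1 on log2(TPM + 1) and log2(TPM + 0.1), and leaving out each library.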

Additional observations from a re-analysis of the deposited data

How the results depend on the processing

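KLF9, KLF11 and KLF16 kept direction and side of the threshold under all 18 alternatives in all 3 comparisons, as did KLF10 and KLF13 with the SUDS3 siRNA. With 1 library left out in turn, the log2 fold change of KLF10 with the PHF12 siRNA ran from -0.36 to -0.17 and that of KLF13 from 0.19 to 0.39, so that 0 to 1 members rose and 1 to 2 fell there. Between SUDS3 and PHF12 knockdown, KLF10 ran from -0.22 to -0.035 and KLF13 from 0.15 to 0.22, and 0 to 1 members fell. With upper-quartile scaling KLF10 passed in that comparison (-0.19), so that 1 member fell, and the KLF13 call ended (0.12). The KLF13 call also ended with RLE size factors (0.19), DESeq2 (0.19), limma on log2(TPM + 1) (0.19) and limma on log2(TPM + 0.1) (0.20). The cause was not tested. Numbers of genes called stayed within 1.5 times, but upper-quartile scaling made the share of calls that were higher 44.2% for SUDS3 knockdown, 56.9% for PHF12 knockdown and 41.2% between the knockdowns, against 50.5%, 46.4% and 51.8% with TMM. Same-numbered libraries did not deviate together (9 correlations of -0.09 to 0.09, and not every library correlated best with its own number). A replicate block changed no member's call, with KLF13 between the knockdowns at 0.19 (adjusted p = 0.0452) and 7073 and 5848 genes called in SUDS3 and in PHF12 knockdown, against 7004 and 5776. If 1 fragment is worth 4 counts, the members' depth is about 4 times lower than their counts, and dividing by 4 left their calls as they were.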
